A study of Mus musculus with 18 samples.

Results

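The genes described here make, load and control the molecules that show peptides to T cells. They are 10 genes: B2m, H2-K1, H2-D1, Tap1, Tap2, Tapbp and Nlrc5 of the MHC class I pathway, and Cd74, H2-Aa and H2-Ab1 of the MHC class II pathway. They were chosen by name, and all 10 were present among the 12547 genes of the deposited expression table. The table holds 18 RNA-seq libraries of mouse T cells, 3 in each of 6 groups, from Id3 knockout (KO) or wild-type (WT) cells in sets that the labels number 3, 5 and 6. Cells of every group started as naive CD4 T cells, were activated with beads against CD3 and CD28, and were cultured with IL2, IL12, serum and an IL4-blocking antibody, conditions that favour Th1 cells. Nothing in the labels explains the sets or gives the way the knockout was made or the strain or age of the mice. They also do not state whether the 3 libraries of a group came from different animals. The p-values therefore measure only the spread between these samples, as left after the authors' equalizing of values within groups. Names in the authors' deposited table of contrasts pair set 3 with the number 24 and sets 5 and 6 with the number 96, with no unit.

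MHC class I molecules sit on nearly every nucleated cell and carry peptides from proteins made inside the cell. Their heavy chains (H2-K1 and H2-D1 among them) pair with the light chain β2-microglobulin, the product of B2m; the transporter formed by TAP1 and TAP2 brings peptides into the endoplasmic reticulum, and tapasin, the product of Tapbp, holds empty class I molecules at that transporter. MHC class II molecules are made mainly by B cells, dendritic cells and macrophages and carry peptides from engulfed material. Their α and β chains (H2-Aa and H2-Ab1) assemble with the invariant chain, the product of Cd74, which fills the peptide groove until the H2-DM proteins exchange it for peptide. Activated T cells of mice make little class II of their own. Interferon gamma raises both sets of genes, through IRF1 and through the transactivators NLRC5 for class I and CIITA for class II.

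The promoters of these genes are shown because class I and class II genes share a promoter module, in which RFX, CREB-type and NF-Y factors bind side by side and recruit NLRC5 or CIITA. RefSeq promoter entries of the GRCm38.p6 build, each reaching from 250 bases before to 50 bases after the start of the gene, were at hand for 6 of the 10 genes, with 2 entries for H2-K1. In 4 of these genes, TGACG (the core of an X2 box) was followed on the same strand by ATTGG (a Y box), with starts 25 or 26 bases apart. That spacing was found after looking at these promoters. Searched on both strands, it occurred in 45 of 26994 promoters (0.167%), where only the first entry of each gene symbol was counted. Singly the motifs were common: ATTGG was found in 37.9% and TGACG in 21.0% of promoters. The windows of 70 bases below run 5′ to 3′ along the gene's own strand, with that pair in capitals. They lie at chr2:122147589-122147658 (plus strand) for B2m, chr17:34000339-34000408 (minus strand) for H2-K1, chr17:35262973-35263042 (plus strand) for H2-D1 and chr17:34287848-34287917 (minus strand) for H2-Aa.
B2m: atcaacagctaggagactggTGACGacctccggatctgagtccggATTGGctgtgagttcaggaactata
H2-K1: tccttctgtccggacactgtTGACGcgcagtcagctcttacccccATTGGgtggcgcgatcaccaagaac
H2-D1: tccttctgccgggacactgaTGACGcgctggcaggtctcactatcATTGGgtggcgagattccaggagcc
H2-Aa: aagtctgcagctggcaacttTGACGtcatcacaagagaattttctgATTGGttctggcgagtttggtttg
The starts were 25 bases apart in the 3 class I promoters and 26 apart in H2-Aa. The Tap1 entry had both motifs, but not as this pair, and its 250 bases before the start are shown because the promoter entry of Psmb9, an immunoproteasome gene read from the opposite strand, overlaps that of Tap1 by 275 bases. They lie at chr17:34187306-34187555 on the plus strand, and the capitals mark TGACG and CCAAT, which is ATTGG on the other strand.
Tap1: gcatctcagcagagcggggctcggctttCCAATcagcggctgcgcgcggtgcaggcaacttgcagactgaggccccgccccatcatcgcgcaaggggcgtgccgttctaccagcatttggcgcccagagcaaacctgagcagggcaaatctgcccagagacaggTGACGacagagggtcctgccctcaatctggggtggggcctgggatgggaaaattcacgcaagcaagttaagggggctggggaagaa
The entry of Tapbp held ATTGG at 2 places and no TGACG. A GAS motif (TTCNNNGAA) was in none of the entries of these 6 genes and in 8.46% of all promoters, and an ISRE motif (TTTC, any 2 bases and TTTC again) was in the B2m entry alone and in 3.47% of all promoters. These matches describe letters in a window and show no binding. On GRCm38.p6, 7 of the 10 genes lie on chromosome 17, in the mouse MHC region, while B2m is on chromosome 2 and Nlrc5 on chromosome 8.

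Expression is given as the deposited log2 values, where a difference of 1 is a factor of 2. Id3 itself stood no higher than 5.63 in KO libraries and between 8.85 and 10.08 in WT libraries, so the libraries carried the Id3 level their labels call for. Cd3e, which encodes a chain of the T cell receptor complex, stood between 12.53 and 14.10 in all libraries, and Cd4 between 11.52 and 13.35. Of 8 measured T cell markers out of 9 listed, 4 fell in KO cells of set 3, where 4.46% of all genes were called lower, and 7 rose in each of sets 5 and 6, where 50.1% and 53.9% were called higher. Relative to the library medians, 2 rose and 1 fell in set 5, and 1 rose and none fell in set 6. In bulk samples, more cells of a type and more RNA per cell cannot be told apart. The depth of the libraries is unknown, because the authors' values had been equalized within each group, and 97.0 to 98.4% of the values in rank order were the same in its libraries. Equal values in 2 libraries, as for B2m below, come from equal ranks. Equalizing removes most library-wide differences inside a group but not those between groups, whose medians were 9.565 (KO) and 9.176 (WT) in set 5. The SEs and p-values rest on the spread inside groups, so they may understate the full spread between samples. The median difference between KO and WT cells over all genes was 0.39 in set 5 and 0.42 in set 6, against -0.07 in set 3. Differences were tested with limma over all 12547 genes and are called where the Benjamini-Hochberg adjusted p is under 0.05, and values relative to each library's median are given where they matter.

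In set 3 the class I genes did not differ detectably between KO and WT cells: none of the 7 passed the limma test (2 had an unadjusted p under 0.05), against 6.92% of all genes called higher and 4.46% called lower. The differences ran from -0.37 for Nlrc5 to 0.20 for H2-K1 (SE 0.08 to 0.15, adjusted p from 0.0534 to 0.554). B2m stood at 17.72, 17.22 and 17.52 in KO libraries and at 17.22, 17.30 and 17.55 in WT libraries. The groups overlapped for B2m, H2-K1, H2-D1, Tap2 and Tapbp. Nlrc5, the gene of the class I transactivator, was lower in every KO library (11.50, 11.45 and 11.59) than in any WT library (11.84, 11.78 and 12.04), a difference of -0.37 (SE 0.12, adjusted p = 0.0534). Tap1 was likewise lower in every KO library, by a mean difference of -0.18 (SE 0.08, adjusted p = 0.143). Lower values without overlap were seen for 17.9% of all genes.

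In sets 5 and 6 all 7 class I genes rose in KO cells, by 0.93 to 1.52 in set 5 and by 0.82 to 1.41 in set 6. The share of all genes called higher was 50.1% in set 5 and 53.9% in set 6, so these counts stand against a high background. Relative to the library medians the 7 genes still rose, by 0.54 to 1.13 in set 5, where 24.9% of all genes were called higher and 24.7% lower, and by 0.41 to 1.001 in set 6, where 18.8% were called higher and 18.5% lower. KO and WT libraries did not overlap for any of the 7 genes in either set, and higher values without overlap were seen for 54.3% of all genes in set 5 and 59.1% in set 6.

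The light chain and the heavy chains rose together. B2m stood at 19.01, 19.18 and 19.18 in KO libraries of set 5 and at 17.92, 18.04 and 18.12 in WT libraries, a difference of 1.09 (SE 0.13, adjusted p = 3.04e-06). In set 6 the KO libraries held 19.17, 19.49 and 19.17 and the WT libraries 17.86, 18.16 and 18.21, a difference of 1.199 (SE 0.13, adjusted p = 1.64e-06). Relative to the library medians the differences were 0.70 in set 5 and 0.79 in set 6. Among the alternatives listed below the smallest were 0.54 and 0.55, and B2m kept its calls. By deposited value, with no correction for gene length, B2m was the first or second gene of every KO library of sets 5 and 6, the fifth to ninth of the WT libraries of those sets, and between rank 9 and rank 23 in set 3. A gene at the top rank can take no value above the one its group shares, which limits how far B2m could differ between those libraries.

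H2-K1, a classical class I heavy chain, had the largest rise of the 7 in set 5. Its KO libraries held 17.83, 17.77 and 17.98 and its WT libraries 16.11, 16.39 and 16.50, a difference of 1.52 (SE 0.13, adjusted p = 8.98e-08), or 2.88 times the WT level. The lowest KO library stood more than 1 above the highest WT library. In set 6 the values were 17.61, 17.68 and 17.93 against 16.13, 16.50 and 16.43, a difference of 1.38 (SE 0.13, adjusted p = 3.42e-07). H2-D1, the other classical heavy chain, stood at 16.97, 16.91 and 17.14 in KO and 15.61, 15.84 and 15.89 in WT cells of set 5, a difference of 1.23 (SE 0.11, adjusted p = 1.83e-07). Its difference in set 6 was 0.97 (SE 0.11, adjusted p = 2.28e-06). Class I heavy chains are near-identical over long stretches, so how reads were divided among H2-K1, H2-D1 and their relatives is uncertain.

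The peptide transporter genes moved by nearly the same amount. Tap1 stood at 13.36, 13.55 and 13.53 in KO and 12.46, 12.61 and 12.58 in WT cells of set 5, a difference of 0.93 (SE 0.08, adjusted p = 7.46e-08), and differed by 0.94 (SE 0.08, adjusted p = 1.18e-07) in set 6. Tap2, its partner, rose by 0.94 (SE 0.09, adjusted p = 5.75e-07) in set 5 and by 0.82 (SE 0.09, adjusted p = 2.87e-06) in set 6, where KO libraries held 12.97, 13.22 and 13.20 and WT libraries 12.28, 12.25 and 12.41. Each gene's KO libraries stood above its WT libraries in both sets. Tapbp, the tapasin gene, stood at 14.60, 14.66 and 15.05 in KO and 13.34, 13.66 and 13.52 in WT cells of set 5, and rose by 1.27 (SE 0.15, adjusted p = 3.59e-06) there and by 1.41 (SE 0.15, adjusted p = 1.59e-06) in set 6.

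Nlrc5, which was the lowest of the 7 differences in set 3, rose in the later-numbered sets. Its KO libraries held 13.32, 13.12 and 13.60 in set 5, against 11.92, 12.12 and 12.22 in WT libraries, a difference of 1.26 (SE 0.12, adjusted p = 2.73e-07). In set 6 it differed by 0.92 (SE 0.12, adjusted p = 8.08e-06). The values of WT libraries stayed within 11.78 to 12.22 across the sets. When the libraries were centred on their medians and the test also asked for a fold beyond 1.2, the calls of H2-D1, Tap2 and Nlrc5 in set 6 were lost (adjusted p = 0.0534, 0.279 and 0.142).

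**Figure D1:**
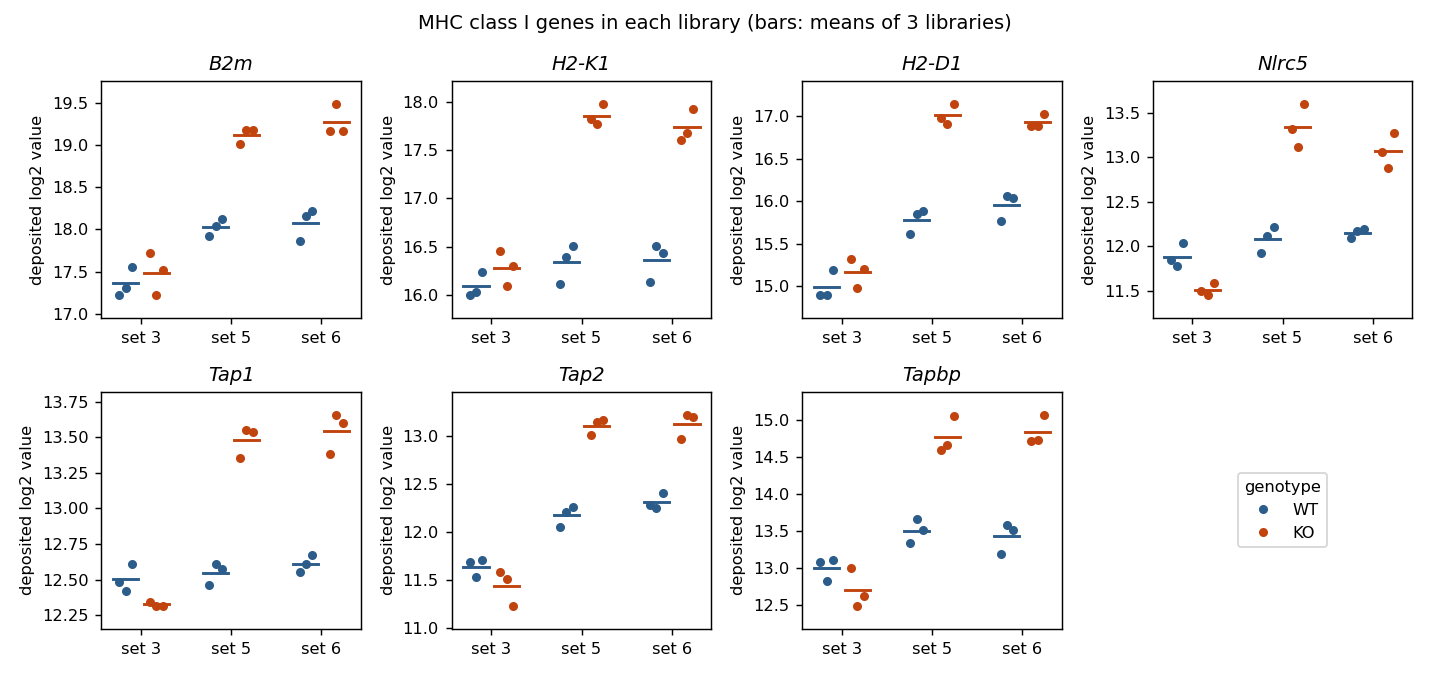
Deposited log2 values (vertical axis) of the 7 class I genes in the WT (blue) and KO (orange) libraries of sets 3, 5 and 6 (horizontal axis). Points are single libraries and bars are means of 3 libraries; KO and WT points mix or lie close in set 3 and are apart for every gene in sets 5 and 6.

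The KO effect on class I genes differed between the sets by a direct test of the difference. All 7 effects were larger in set 5 than in set 3, by 0.97 to 1.63 (adjusted p from 1.6e-06 to 0.000448), where 43.2% of all genes were called higher. In set 6 they exceeded those of set 3 by 0.80 to 1.72 (adjusted p from 2.76e-06 to 0.00058), where the share of all genes was 46.2%. Relative to the library medians, 7 passed for set 5 and 6 for set 6, against 18.7% and 12.7% of all genes; H2-D1 was the gene that did not (0.36, adjusted p = 0.104). The 2 largest changes of effect between sets 3 and 5 belonged to Nlrc5 (1.63, SE 0.17) and Tapbp (1.57, SE 0.22). The B2m change was lost after quantile normalization across all libraries, with adjusted p = 0.237 for set 5 and 0.247 for set 6. Between sets 5 and 6 the effects on the 7 genes differed by -0.34 to 0.15. None of the 10 genes passed limma's test of that difference or had an unadjusted p under 0.05, and of all genes 0% passed and 1320 had an unadjusted p under 0.05.

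**Figure D2:**
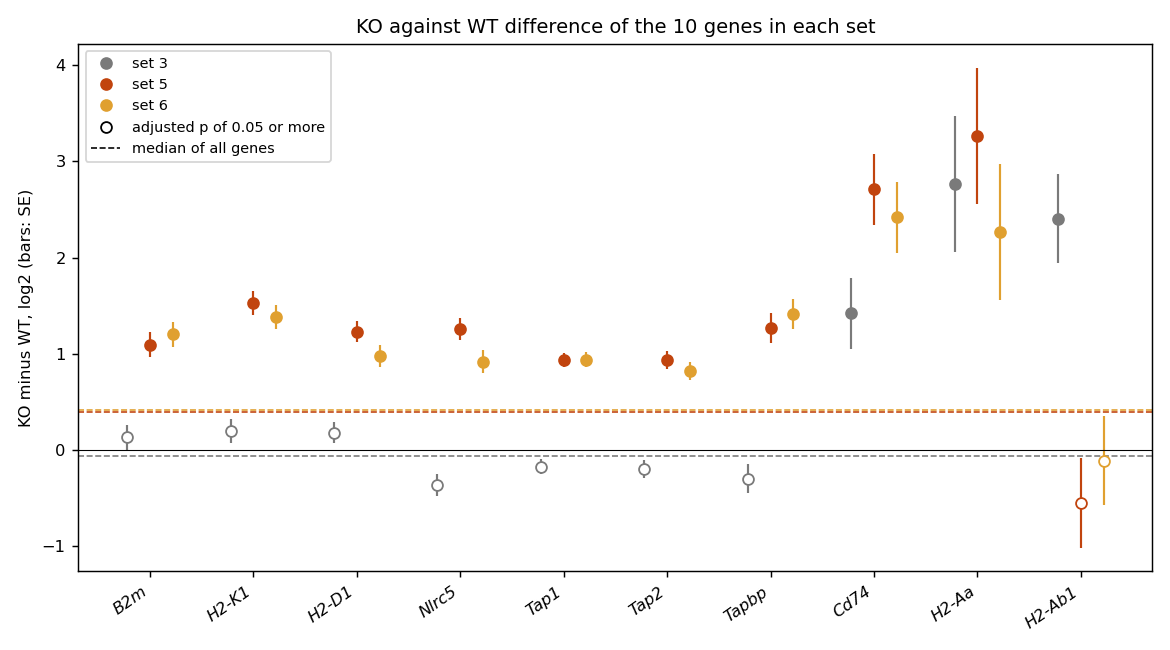
KO minus WT difference of the 10 genes (log2, vertical axis) in sets 3 (grey), 5 (orange) and 6 (yellow), with bars for 1 SE, open points where the adjusted p was 0.05 or more, and dashed lines at the median of all genes in each set. The 7 class I genes lie between -0.37 and 0.20 in set 3 and between 0.82 and 1.52 in the other sets, while H2-Ab1 is called in set 3 alone.

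Within a genotype, class I genes rose further between sets 3 and 5 in KO cells than in WT cells. In KO cells all 7 rose, by 1.16 for Tap1 to 2.07 for Tapbp (adjusted p from 2.64e-10 to 1.09e-08), where 49.8% of all genes were called higher. In WT cells 4 of the 7 rose (29.3% of all genes): H2-D1 by 0.79 (SE 0.11), B2m by 0.67 (SE 0.13), Tap2 by 0.53 (SE 0.09) and Tapbp by 0.50 (SE 0.15). H2-K1, Nlrc5 and Tap1 differed by 0.25, 0.20 and 0.04 in WT cells and did not pass (adjusted p = 0.0913, 0.138 and 0.622). H2-K1 passed without WT replicate 1 of set 5 (adjusted p = 0.0253) and after quantile normalization (adjusted p = 0.00917). These comparisons share libraries with those of KO and WT cells given above.

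Between sets 6 and 5 none of the 10 genes passed in WT cells, where 3.37% of all genes were called by limma, or in KO cells, where 12.0% were. At an unadjusted p under 0.05 stood 0 of the 10 in WT cells and 1, Nlrc5, in KO cells. Nlrc5 passed there without KO replicate 2 of set 5 (-0.39, adjusted p = 0.0448). For these sets same-numbered libraries deviated together, and the fit of the compared groups alone with the replicate number as a block called H2-D1 in WT cells (0.17, adjusted p = 0.0361), and Nlrc5 (-0.27, adjusted p = 0.0134) and H2-Ab1 (0.66, adjusted p = 0.00415) in KO cells. That fit called 12.1% of all genes in WT and 19.6% in KO cells. With the block in the fit of all groups, Nlrc5 alone of the 10 passed in KO cells (adjusted p = 0.0359), beside 15.1% of all genes.

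The class II genes stood higher in KO cells in set 3, where no class I gene passed. All 3 rose: H2-Aa by 2.76 (SE 0.71, adjusted p = 0.0187), H2-Ab1 by 2.40 (SE 0.46, adjusted p = 0.00341) and Cd74 by 1.42 (SE 0.37, adjusted p = 0.0209), against 6.92% of all genes called higher. KO and WT libraries did not overlap for any of them, as for 12.0% of all genes in this direction. Cd74 stood at 13.05, 10.96 and 11.44 in KO and at 10.36, 10.41 and 10.43 in WT libraries. H2-Aa, the α chain, stood at 11.71, 9.21 and 9.60 in KO and at 6.85, 7.56 and 7.82 in WT libraries. H2-Ab1, the β chain, stood at 11.15, 9.09 and 10.04 in KO and at 7.16, 7.38 and 8.53 in WT libraries. In each case KO replicate 1 was the highest library of the 6.

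The set 3 result depended on single libraries. Without KO replicate 1, Cd74 differed by 0.80 (adjusted p = 0.0621) and H2-Aa by 1.99 (adjusted p = 0.118), while H2-Ab1 kept its call at 1.87 (adjusted p = 0.0219). Without WT replicate 1, the calls of Cd74 (adjusted p = 0.0629) and H2-Aa (0.079) were also lost, and without WT replicate 3 that of Cd74 (0.0515). In a fit of the 2 groups alone none of the 3 passed (adjusted p = 0.152 for Cd74, 0.0673 for H2-Aa and 0.0703 for H2-Ab1).

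B cell markers moved with the class II genes in set 3. Of 11 listed markers 8 were measured, and 6 of these rose in KO cells, with a median difference of 2.52 beside -0.07 for all genes, of which 6.92% were called higher. Their summed level was 10.97, 8.02 and 8.36 in KO libraries and 6.35, 6.27 and 7.50 in WT libraries (log2 of the sum of linear values), highest again in KO replicate 1. Cd79a, a part of the B cell receptor, stood at 7.36, 4.56 and 4.52 in KO and at 3.10, 2.84 and 2.99 in WT libraries. Without KO replicate 1 none of the 8 markers passed, and without WT replicate 1 or WT replicate 2, 1 of them did. Of 4 measured dendritic cell markers out of 10 listed, Zbtb46 and Batf3 rose. Both calls were lost when any 1 library of set 3 other than KO replicate 2 was left out. The summed level of all 4 was 12.80 to 12.97 in KO and 12.70 to 12.75 in WT libraries. Bst2, 1 of the 4, made up most of it in KO libraries, at 12.70, 12.66 and 12.60. Zbtb46, a factor of classical dendritic cells, stood at 6.59, 5.82 and 5.94 in KO and 4.05, 4.73 and 4.67 in WT libraries. Flt3 and Csf1r were listed but were not among the measured genes. Of 5 measured macrophage markers out of 12 listed, Cd68 rose, by 1.10 (SE 0.27), with summed levels of 7.17 to 7.65 in KO and 6.25 to 6.79 in WT libraries, and Adgre1 (F4/80) stood near the lowest values in KO (1.68, 1.07 and 1.002) and WT libraries (1.11, 2.12 and 1.04). No macrophage marker passed when KO replicate 3 or WT replicate 2 was left out. The part of these markers in the class II differences was not tested.

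**Figure D3:**
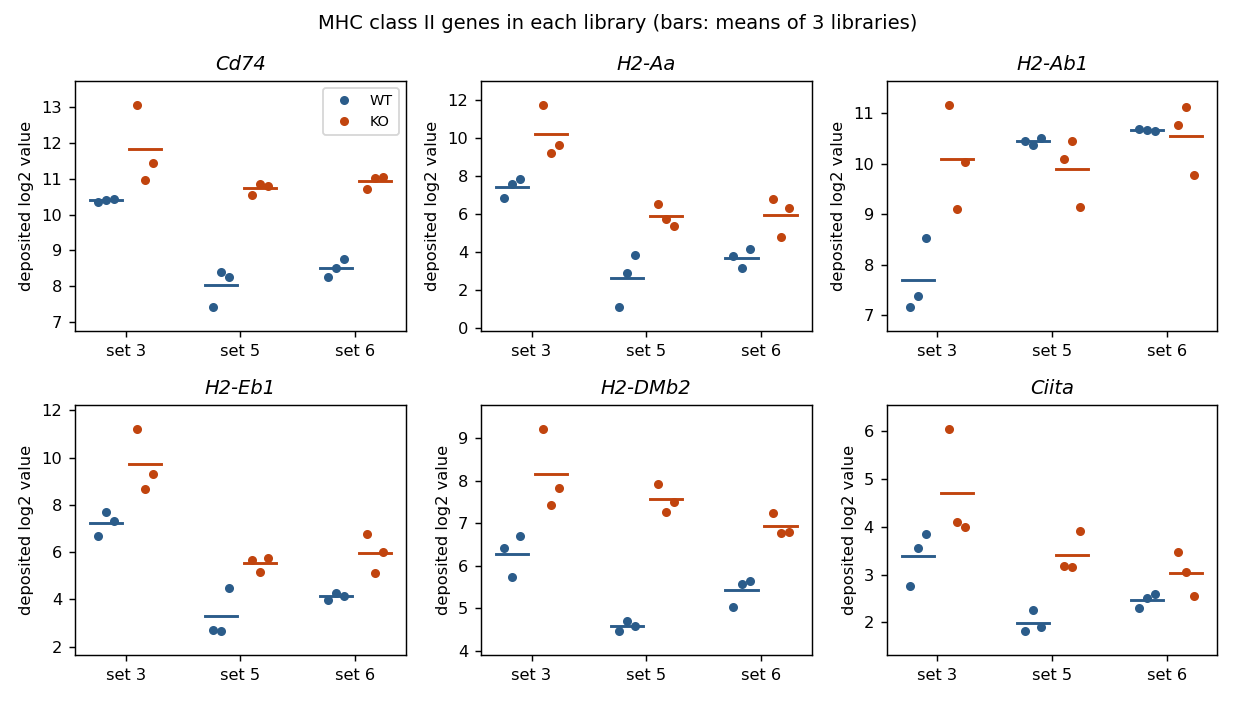
Deposited log2 values (vertical axis) of 6 class II genes in the WT (blue) and KO (orange) libraries of sets 3, 5 and 6 (horizontal axis), with points for libraries and bars for means of 3. H2-Aa and H2-Eb1 are highest in set 3 in both genotypes, whereas H2-Ab1 is lowest in the WT libraries of set 3.

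In sets 5 and 6 Cd74 and H2-Aa were higher in KO cells and H2-Ab1 was not. Cd74 stood at 10.54, 10.86 and 10.80 in KO and at 7.42, 8.40 and 8.25 in WT libraries of set 5, a difference of 2.71 (SE 0.37, adjusted p = 1.18e-05), or 6.54 times the WT level. In set 6 it stood at 10.73, 11.01 and 11.04 against 8.26, 8.50 and 8.75, a difference of 2.42 (SE 0.37, adjusted p = 4.13e-05). KO and WT libraries were more than 1 apart on the log2 scale in both sets, and the differences relative to the library medians were 2.32 and 2.01.

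H2-Aa stood at 6.53, 5.75 and 5.35 in KO and at 1.10, 2.91 and 3.82 in WT libraries of set 5, a difference of 3.27 (SE 0.71, adjusted p = 0.000858). WT replicate 1 was at the lowest value of its library, which 330 genes shared, so the size of this difference rests partly on that lowest value. In set 6 it stood at 6.80, 4.77 and 6.30 against 3.78, 3.14 and 4.16, a difference of 2.26 (SE 0.71, adjusted p = 0.0118). That call was lost relative to the library medians (1.85, adjusted p = 0.05), after quantile normalization (adjusted p = 0.0861) and without KO replicate 1 (adjusted p = 0.0581).

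H2-Ab1 stood at 10.10, 10.44 and 9.13 in KO and at 10.45, 10.37 and 10.51 in WT libraries of set 5, a difference of -0.56 (SE 0.46, adjusted p = 0.324). In set 6 the values were 10.75, 11.12 and 9.78 against 10.68, 10.67 and 10.65, a difference of -0.12 (SE 0.46, adjusted p = 0.847). In set 5, 2 KO libraries lay below the WT libraries and 1 among them, and in set 6, 2 lay above and 1 below. The KO effect on H2-Ab1 was smaller than in set 3 by 2.96 in set 5 (SE 0.66, adjusted p = 0.00147) and by 2.52 in set 6 (SE 0.66, adjusted p = 0.00489), changes that were called for 6.82% and 4.11% of all genes in this direction. For Cd74 the effects of sets 5 and 6 exceeded that of set 3 by 1.29 (adjusted p = 0.0508) and 1.002 (adjusted p = 0.124), and without KO replicate 1 of set 3 by 1.91 (adjusted p = 2e-04) and 1.62 (adjusted p = 0.000831). For H2-Aa the changes of effect were 0.50 and -0.50 (SE 1, adjusted p = 0.704 and 0.702).

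The α and β chain genes, whose products form 1 molecule, went opposite ways between sets 3 and 5 in WT cells. H2-Aa fell by 4.80 (SE 0.71, adjusted p = 1.69e-05) and Cd74 fell by 2.37 (SE 0.37, adjusted p = 3.02e-05), while H2-Ab1 rose by 2.75 (SE 0.46, adjusted p = 6.85e-05). The shares of all genes called were 38.3% lower and 29.3% higher. In KO cells H2-Aa fell by 4.29 (SE 0.71, adjusted p = 4.11e-05) and Cd74 fell by 1.08 (SE 0.37, adjusted p = 0.0149), where 23.4% of all genes were called lower, and H2-Ab1 differed by -0.21 (SE 0.46, adjusted p = 0.704). The fall of Cd74 was lost without KO replicate 1 of set 3 (-0.47, adjusted p = 0.0887) and in a fit of those 2 groups alone (adjusted p = 0.0685). In WT cells all 4 measured dendritic cell markers fell (median -2.035), and of 8 B cell markers 3 fell and 1 rose (-1.67). In KO cells 3 of the 4 and 5 of the 8 fell (-2.35 and -3.59), and none rose. Of 5 macrophage markers 2 rose and 1 fell in WT cells, and 3 rose and 1 fell in KO cells. The medians of all genes were -0.12 in WT and 0.38 in KO cells. The part of these markers was not tested.

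H2-Eb1, the β chain of the other class II molecule of mice, fell between sets 3 and 5, by 4.20 (SE 0.59, adjusted p = 7.21e-06) in KO and by 3.96 (SE 0.59, adjusted p = 1.83e-05) in WT cells. It stood at 11.21, 8.65 and 9.30 in KO and 6.69, 7.70 and 7.33 in WT libraries of set 3. In set 5 it stood at 5.64, 5.14 and 5.77 against 2.69, 2.67 and 4.47. Summed B cell markers were 7.02 to 7.38 in KO and 5.63 to 5.91 in WT libraries of set 5, and 6.55 to 7.64 and 5.82 to 6.33 in set 6. Of the 8 markers 1 rose in KO cells of set 5, and none passed limma's test in set 6, where 1 had an unadjusted p under 0.05. Their median difference was 0.97 beside 0.39 for all genes in set 5, and 1.08 beside 0.42 in set 6. The summed level of macrophage markers was 9.42 to 9.85 in KO and 7.38 to 7.79 in WT libraries of set 5, and 10.32 to 10.54 and 8.55 to 9.41 in set 6. Of the 5 measured, with a median difference of 0.32 beside 0.39 for all genes in set 5 and of 0.49 beside 0.42 in set 6, Cd68 and Adgre1 rose, by 2.25 (SE 0.27) and 2.72 (SE 0.71) in set 5 and by 1.45 (SE 0.27) and 3.96 (SE 0.71) in set 6, while Itgam differed by -0.48 and -0.84 and did not pass, and Lyz2 did not exceed 2.05 in any of the libraries of these sets. Of the 4 dendritic cell markers 2 rose in set 5 and 1 in set 6, where 50.1% and 53.9% of all genes were called higher. Their summed levels were 12.69 to 12.84 in KO and 12.05 to 12.32 in WT libraries of set 5. In set 6 they were 13.12 to 13.29 and 12.25 to 12.33. Bst2 made up most of these sums in KO libraries, at 12.58, 12.69 and 12.76 in set 5 and 13.01, 13.25 and 13.15 in set 6. Batf3 stood at 8.95, 7.20 and 8.53 in KO libraries of set 5. There Zbtb46 (2.03, 1.16 and 2.70) and Itgax (1.02, 1.003 and 2.24) were low. The part of these markers in the levels of H2-Aa, H2-Eb1 and Cd74 was not tested. H2-Ab1 stood between 9.13 and 11.12 in the libraries of sets 5 and 6.

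**Figure D4:**
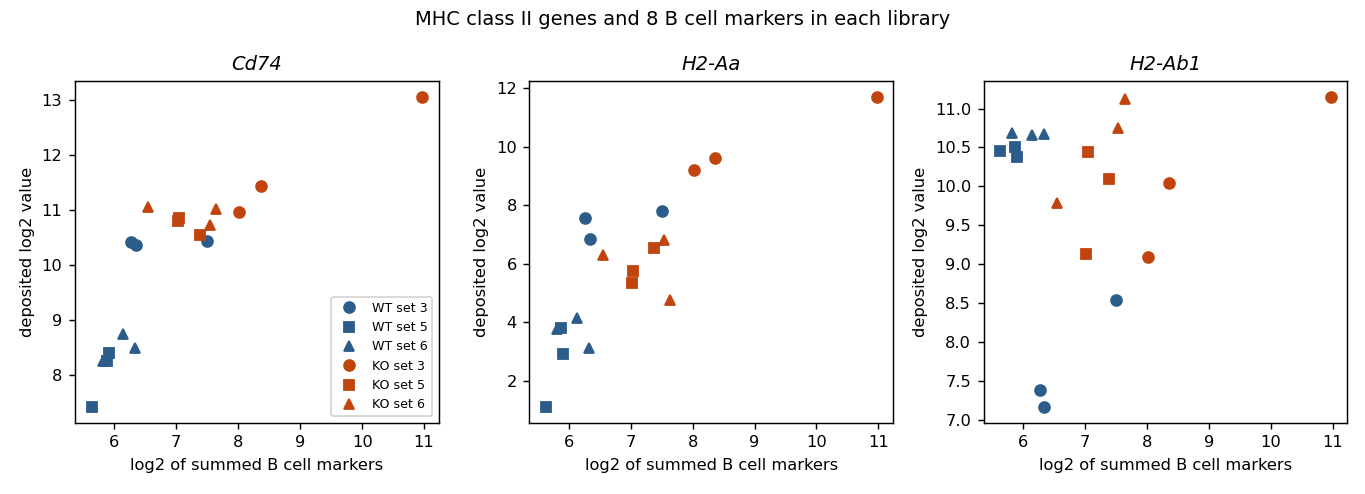
Deposited log2 value of Cd74, H2-Aa and H2-Ab1 (vertical axes) against the log2 of the summed linear values of 8 B cell markers (horizontal axes) in each library; colour gives the genotype and symbol shape the set. KO replicate 1 of set 3 lies at 10.97 on the marker axis, apart from the other 17 libraries, and the WT libraries of sets 5 and 6 combine low markers and low H2-Aa with H2-Ab1 values above 10.

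The other class I-like heavy chains were also mostly higher in KO cells of sets 5 and 6. Of 25 listed genes 13 were measured; 3 rose in set 3 (H2-Q10 by 1.33, H2-Q6 by 0.70 and H2-Q7 by 0.53), and none of these passed without KO replicate 1 or WT replicate 1. In set 5, 10 rose and 1 fell, or 9 and 1 relative to the library medians, with a median of 1.10 beside 0.39 for all genes. In set 6, 10 rose and none fell, or 7 and none relative to the medians, with a median of 1.05 beside 0.42. The shares of all genes called higher were 6.92%, 50.1% and 53.9% in sets 3, 5 and 6. Relative to the medians they were 24.9% in set 5 and 18.8% in set 6. H2-Q4 and H2-Q6, which encode chains of the Q region, rose by 1.62 (SE 0.12) and 1.91 (SE 0.18) in set 5 and by 1.46 (SE 0.12) and 1.72 (SE 0.18) in set 6. H2-T22 rose by 1.14 (SE 0.14) and 1.09 (SE 0.14). Hfe, an iron-sensing relative of class I chains, fell by 1.196 (SE 0.50, adjusted p = 0.0491) in set 5, and did not pass when KO replicate 1, KO replicate 3, WT replicate 1 or WT replicate 2 was left out.

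Genes that cut peptides and load them onto class I molecules had median differences close to those of all genes. All 18 listed genes were measured. In set 3 none rose and 2 fell. Psme1, a subunit of the PA28 proteasome activator, fell by 0.42 (SE 0.08, adjusted p = 0.00303), and the aminopeptidase gene Npepps fell by 0.32 (SE 0.07, adjusted p = 0.00526). In set 5, 11 rose, and Ide and Tpp2, which encode peptidases, fell by 0.49 (SE 0.16, adjusted p = 0.0135) and 0.17 (SE 0.06, adjusted p = 0.0349). The call of Ide was lost without KO replicate 1 or WT replicate 1, and that of Tpp2 without any 1 library other than KO replicate 2. Relative to the library medians 3 genes of the list rose and 7 fell in set 5, and the median of the list was 0.31 beside 0.39 for all genes. In set 6, 12 rose and none fell, against 4 and 7 relative to the medians, with 0.37 beside 0.42. The shares of all genes called higher were 50.1% in set 5 and 53.9% in set 6. Relative to the medians 24.9% were called higher and 24.7% lower in set 5, and 18.8% and 18.5% in set 6. In set 3, 4.46% were called lower. Calr, the calreticulin gene of the loading complex, rose by 0.71 (SE 0.08) and 0.77 (SE 0.08) in sets 5 and 6, and Tapbpl, a peptide editor related to tapasin, by 0.78 (SE 0.11) in set 5. Psmb9, which shares its promoter stretch with Tap1, rose by 0.69 (SE 0.09, adjusted p = 1.49e-05) in set 6, or by 0.28 (adjusted p = 0.0303) relative to the medians. Psmb8, another immunoproteasome subunit, rose by 0.55 (SE 0.08, adjusted p = 3.03e-05) in set 6, and relative to the medians differed by 0.13 (adjusted p = 0.207). Psme1, which rose by 0.52 (SE 0.08, adjusted p = 3.9e-05) in set 5, likewise differed by 0.13 (adjusted p = 0.182) relative to the medians.

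Of 22 listed symbols for class II chains, loading and processing, 16 were measured, and 6 rose in set 3, with a median of 0.41 beside -0.07 for all genes; 1 rose without KO replicate 1 or WT replicate 1. H2-DMb2, which encodes a chain of the exchange factor H2-DM, rose by 1.88 (SE 0.37, adjusted p = 0.00368) and was the class II list gene that kept its call without KO replicate 1 (1.35, adjusted p = 0.0151). H2-Eb1 rose by 2.48 (SE 0.59, adjusted p = 0.0122), and did not pass when KO replicate 1 (adjusted p = 0.0737) or WT replicate 1 (0.0584) was left out. In set 5, 10 rose and 1 fell, or 7 and 2 relative to the medians, with a median of 1.22 beside 0.39, and in set 6, 11 rose and none fell, or 6 and none, with 0.86 beside 0.42. The shares of all genes called higher were 6.92%, 50.1% and 53.9% in sets 3, 5 and 6. Relative to the medians they were 24.9% in set 5 and 18.8% in set 6. H2-DMa rose by 2.43 (SE 0.19, adjusted p = 5.79e-08) in set 5 and 1.997 (SE 0.19, adjusted p = 5.01e-07) in set 6, and Ctss, the cathepsin that trims the invariant chain, by 1.56 (SE 0.19) and 1.31 (SE 0.19). H2-Oa, a chain of the H2-DM inhibitor H2-O, rose by 1.74 (SE 0.25, adjusted p = 2.12e-05) in set 6. H2-Ob, its other chain, differed by 0.04 (adjusted p = 0.932) in set 5 and 0.22 (adjusted p = 0.585) in set 6. In set 3 H2-DMa, H2-Oa and H2-Ob differed by 0.42, 0.08 and -0.25 and did not pass. H2-DMb1 and H2-DMb2 are near-identical genes, so the division of reads between them is uncertain. Cd80, a costimulatory ligand, fell by 1.05 (SE 0.42, adjusted p = 0.041) in set 5, and did not pass when KO replicate 3, WT replicate 1 or WT replicate 2 was left out.

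Among 20 genes that control MHC expression, all measured, 2 rose and 1 fell in set 3, 18 rose and 1 fell in set 5, and 13 rose and 1 fell in set 6. The list medians were -0.12, 0.71 and 0.60 in sets 3, 5 and 6, beside -0.07, 0.39 and 0.42 for all genes, of which 6.92%, 50.1% and 53.9% were called higher. Relative to the library medians the counts were 9 and 2 in set 5 and 8 and 3 in set 6. There 24.9% of all genes were called higher and 24.7% lower in set 5, and 18.8% and 18.5% in set 6. Ifng, the gene of interferon gamma, rose by 1.36 (SE 0.32, adjusted p = 0.0108) in set 3, where Irf1 differed by -0.40 (SE 0.14) and did not pass; the Ifng call was lost without KO replicate 1 (adjusted p = 0.0722). Ifng rose by 1.05 (SE 0.32, adjusted p = 0.00895) in set 5 and by 0.81 (SE 0.32, adjusted p = 0.0366) in set 6, and relative to the medians neither passed (adjusted p = 0.0918 and 0.344). Irf1, the interferon-induced activator of class I promoters, stood at 15.50, 15.46 and 15.90 in KO and 13.55, 13.80 and 13.63 in WT libraries of set 5, and rose by 1.96 (SE 0.14, adjusted p = 2.69e-08) there and by 1.89 (SE 0.14, adjusted p = 5.68e-08) in set 6. Jak2, a kinase of the interferon gamma receptor, rose by 0.50 (SE 0.14) in set 3, by 2.45 (SE 0.14) in set 5 and by 1.66 (SE 0.14) in set 6; its set 3 call was lost without any 1 library other than WT replicate 2. Irf9 and Stat2, parts of the factor ISGF3, rose by 1.51 (SE 0.12) and 1.74 (SE 0.17) in set 5. Irf8 fell by 0.87 (SE 0.17, adjusted p = 0.000427) and 1.04 (SE 0.17, adjusted p = 9.53e-05) in sets 5 and 6. Rfxap, a subunit of the RFX complex on the module shown above, fell by 0.49 (SE 0.11, adjusted p = 0.00714) in set 3. Ciita, the class II transactivator, was low in all libraries, at 6.05, 4.11 and 3.998 in KO and 2.75, 3.56 and 3.86 in WT libraries of set 3, and at 3.18, 3.15 and 3.92 against 1.83, 2.25 and 1.903 in set 5. It rose in set 5 (1.43, SE 0.51, adjusted p = 0.0236), but not relative to the medians (adjusted p = 0.101), and did not pass in set 3 (1.33, adjusted p = 0.104) or set 6 (0.56, adjusted p = 0.361). Rfx5 and Ciita were named for their roles after their values were seen. Rfx5 stood at 9.02, 8.74 and 8.53 in KO and 7.82, 7.63 and 7.16 in WT libraries of set 5, where it rose by 1.22 (SE 0.18, adjusted p = 2.48e-05).

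**Figure D5:**
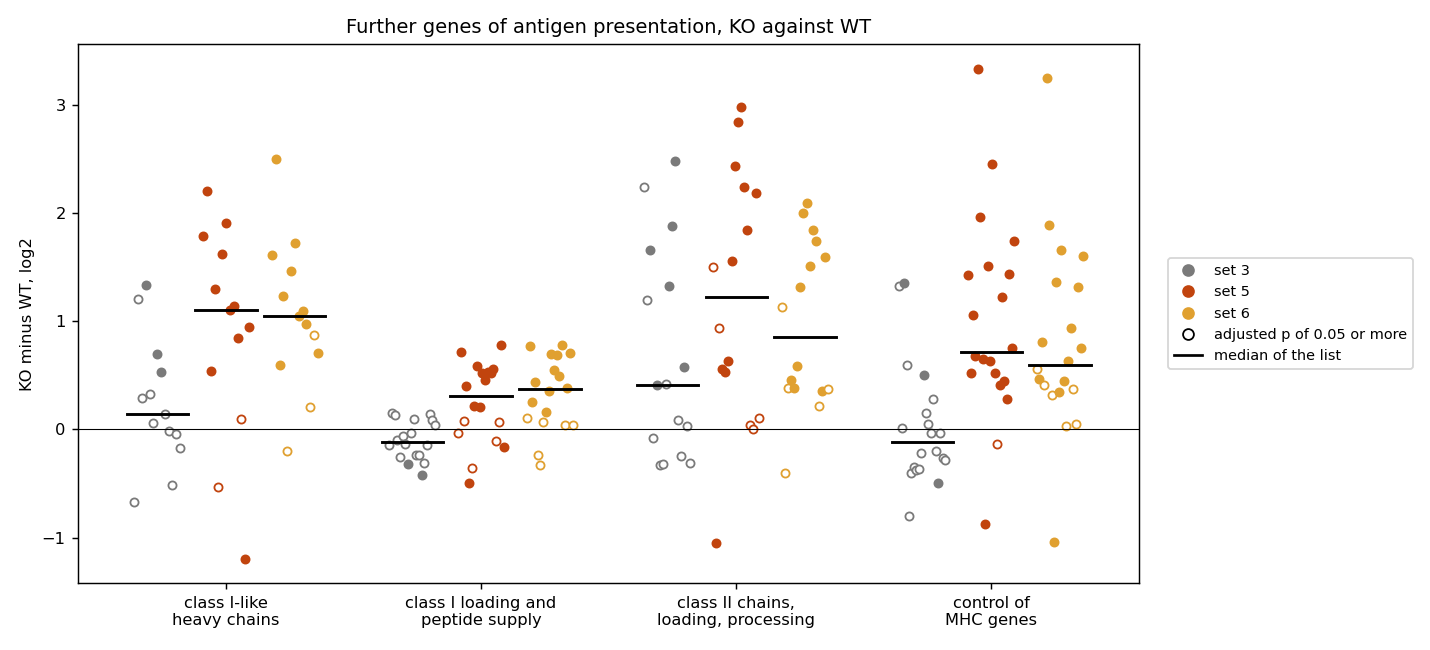
KO minus WT difference (log2, vertical axis) of every measured gene in 4 lists of antigen presentation genes other than the 10 described, in sets 3 (grey), 5 (orange) and 6 (yellow); open points did not pass, and black bars are list medians. The medians of the heavy chain list are 1.10 and 1.05 in sets 5 and 6, above those of the loading and peptide supply list at 0.31 and 0.37.

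The genes whose profile over the 18 libraries was closest to that of Tap1, by the root mean square difference after each gene's own mean was subtracted, were Cdk13, Sat1, Zfp384, Napa and Rmnd5b, at 0.09 to 0.11 on the log2 scale. Their KO effects ran from -0.31 to -0.02 in set 3 and from 0.78 to 1.01 in set 5. For Cd74 they were Slc2a6, H2-DMb2, Ube2l6, Pmepa1 and Dusp4, at 0.48 to 0.63. H2-DMb2 is the class II gene among these.

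In the authors' deposited table, 2 of the 10 genes were called higher in KO cells of set 3 at an adjusted p under 0.05 (3.26% of all genes), 9 in set 5 (34.0%), 9 in set 6 (33.1%) and 9 in a contrast of both sets (41.6%). In the authors' deposited table the adjusted p of Cd74 in set 3 was 0.0751 and those of H2-Aa and H2-Ab1 were 0.0457 and 0.00919. In its contrasts of sets 6 and 5, the authors' deposited table called none of the 10 genes, against 0.462% of all genes called higher within KO cells and 0.638% within WT cells.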

How the data were processed

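RNA-seq was deposited for 18 libraries. Per the submitters' processing notes, Salmon 1.9.0, edgeR, limma and the GRCm39 build were used, with no roles stated. The authors deposited log2 values per gene, equalized within groups, for 12547 genes, and a table of contrasts with log2 fold changes and p-values, whose deposited test score was not used. Counts were not used here, so depth is unknown and no counting interval is given.

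Differences were tested with limma 3.58.1 (R 4.3.3) with a mean-variance trend on the deposited log2 values, with 6 group means over all 18 libraries (12 residual degrees of freedom), and Benjamini-Hochberg adjustment over 12547 genes. A gene is called at an adjusted p under 0.05. The test was checked on simulated data. Alternatives were centring on library medians, quantile normalization, a replicate block, no trend, 1 added on the linear scale, a mean log2 value of at least 6, a minimum fold of 1.2, the compared groups alone, and leaving out each library. Libraries with the same number deviated together between sets 5 and 6 (correlations of deviations 0.22 to 0.34 in KO and 0.12 to 0.16 in WT cells), so blocked values stand beside that comparison. Between sets 3 and 5 these correlations were smaller, 0.025 to 0.15 in KO and 0.069 to 0.074 in WT cells. Libraries with other numbers gave -0.15 to 0.061 and -0.049 to -0.03 there.

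The genes, lists and tests were chosen with earlier results of these data known. Genes named from the lists of antigen presentation genes were drawn in part from the called genes with the smallest p, up to 4 in each direction per list and comparison. Not all of these are given: Ifi30, Ctsd, H2-T23 and Psme2, for example, were left out. Other genes, such as H2-Ob, Rfx5 and Ciita, were named without being among them, so the named genes follow no fixed rule. Promoter sequences are from RefSeq (GRCm38.p6).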

Additional observations from a re-analysis of the deposited data

Results flagged for a closer look

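For 8 of the 10 genes the KO effect differed between sets by limma's test of the difference itself. Between sets 3 and 5 it was larger in set 5 for B2m (0.97), H2-K1 (1.33), H2-D1 (1.05), Tap1 (1.11), Tap2 (1.14), Tapbp (1.57) and Nlrc5 (1.63), and smaller for H2-Ab1 (-2.96), as log2 differences of the effects. Between sets 3 and 6 the same genes differed, B2m by 1.07, H2-K1 by 1.19, H2-D1 by 0.80, Tap1 by 1.11, Tap2 by 1.02, Tapbp by 1.72, Nlrc5 by 1.29 and H2-Ab1 by -2.52. Of all genes, 43.2% were called with a larger and 6.82% with a smaller effect in set 5 than in set 3. For set 6 these shares were 46.2% and 4.11%, so the counts stand against a high background. Relative to the library medians, H2-D1 did not pass for set 6 (0.36, adjusted p = 0.104). After quantile normalization B2m passed for neither set (adjusted p = 0.237 for set 5 and 0.247 for set 6), and H2-D1 did not pass for set 6. Both comparisons share the libraries of set 3. The set number goes with the numbers 24 and 96 in the authors' contrast names, and whatever else differed between the sets cannot be told apart from it.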

How the results depend on the processing

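No difference of the 10 genes that was called changed direction under any alternative. In set 3 the count of called genes, 3 as reported, was 0 in a fit of the compared groups alone and 1 to 3 without 1 library (1 without KO replicate 1 or WT replicate 1), and the count over all genes, 1427, was 379 in that fit, 492 with a minimum fold of 1.2, and 666 and 872 without KO replicate 1 and WT replicate 1. In set 6 the count, 9 as reported, was 5 with centring and a minimum fold of 1.2 together, an alternative chosen after seeing the data, and 8 to 9 without 1 library; in set 5 it was 9 throughout, apart from 8 where genes of low mean, H2-Aa among them, were left out. Over all genes, the minimum fold lowered 7299 calls to 4743 in set 5 and 7336 to 4419 in set 6. Between sets 6 and 5, the replicate block gave 1 called gene in KO cells and 0 in WT cells, against 0 as reported in each; the compared groups alone with the replicate block, chosen after seeing the data, gave 2 and 1; and leaving out 1 library gave 0 to 1 in KO cells. For KO against WT cells the libraries share only a number (correlations of deviations from -0.081 to 0.18), and the block changed 1 call, that of Nlrc5 in set 3 (adjusted p = 0.00828); between sets 3 and 5 it changed 1 in WT cells, that of Nlrc5 (adjusted p = 0.0367). No cause of these differences was tested. Equalized values without counts hide the depth behind each library, and 149 to 350 genes per library share its lowest value.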
